A study of Mus musculus with 8 samples.

Results

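The 38 genes described here encode the laminin chains, other glycoproteins of the basement membrane, fibronectin and the integrins that bind them. They were taken by symbol from a table of 55401 genes, and all 38 were present and passed the filter on low counts. RNA had been sequenced from mouse lung at E13.5, in 4 libraries labelled cre control and 4 libraries labelled Tbx4tetOcre_MyrfE6, called mutant here. The mutant carries the MyrfE6 allele together with Tbx4tetOcre, and the labels give the control only as cre control. They do not explain the allele or the transgenes, name the cells in which Cre acts, or state how many embryos went into a library and of which sex. Whether replicates were separate litters is not given either, and the p-values reflect the variation among these 8 libraries, which may be technical. Every value is a sum over the cells of a whole organ, in which fewer cells of a type and less RNA per cell cannot be told apart.

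A basement membrane is a thin sheet of matrix under epithelium, under mesothelium and around blood vessels and muscle cells. Laminins build its first network as trimers of an alpha, a beta and a gamma chain, collagen IV builds a further network, and nidogens and the heparan sulfate proteoglycan perlecan link them. Fibronectin forms fibrils mainly in the mesenchyme. Integrins are receptors made of an alpha and a beta chain that hold cells to these proteins. In the embryonic lung, laminins and their receptors are known from branching of the airways, and nephronectin with its receptor from kidney development.

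Totals ranged from 17799899 to 48679134 counts per library, the most in mutant replicate 2, and the smallest total puts the limit of 3 counts at 0.169 CPM, the count scaled to a common library total. CPM values of genes are scaled by TMM, a normalisation for library composition. The gene Myrf, which encodes a membrane-bound transcription factor, measured 114, 115, 107 and 120.5 CPM in control replicates 1 to 4 and 92.4, 84.4, 85.3 and 91.6 CPM in mutant replicates 1 to 4, lower in every mutant library, as summed over all its exons (log2 fold change -0.37, SE 0.0440, adjusted p = 2.11e-04, edgeR quasi-likelihood test). The lung transcription factor gene Nkx2-1 was present in every library, with group means of 175 and 188 CPM. On the first principal component mutant replicate 4, at -4.12, lay beside control replicate 4, at -4.96. Y-linked transcripts were highest in mutant replicates 1 and 2, at 133.8 and 143.8 CPM, where Xist, a transcript of female cells, was at 0.596 and 0.370 CPM. In control replicates 2 and 3 they were at 0 and 0.056 CPM, with Xist at 869 and 863 CPM. The other libraries held both, with Y-linked transcripts at 64.2 to 76.2 CPM and Xist at 350.1 to 403 CPM. Sex make-up thus differed in part with group, and in those libraries its effect cannot be told apart from that of the genotype.

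Of the 38 genes, 1 rose in the mutant lung, 0 fell and 37 did not pass (edgeR, adjusted p below 0.05). Over all 15788 genes tested 1.49% passed, 0.564% higher and 0.931% lower. The gene that rose was Lama4, the laminin alpha 4 chain of vessels. At an unadjusted p below 0.05 there were 10 of the 38 genes, 3 higher and 7 lower. Of all genes tested 13.9% lay below that value, 930 genes higher and 1261 lower. DESeq2 and limma-voom each called the same counts, 1 higher and 0 lower. The groups did not overlap in 2 genes, Lama4 and Itga4, against 7.37% of all genes tested. Lama4 was the 1 gene wholly above the controls, as were 3.31% of all genes, and Itga4 the 1 wholly below them, as were 4.06%. The median log2 fold change of the 38 genes was -0.01, with 19 positive and 19 negative, and that of all genes tested was 6.5e-05. No gene of the 38 differed by 1.5-fold or more, and 21 differed by less than 1.1-fold. Without mutant replicate 4 the counts were 1 higher and 3 lower, and without control replicate 1 they were 0 higher and 0 lower.

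**Figure D1:**
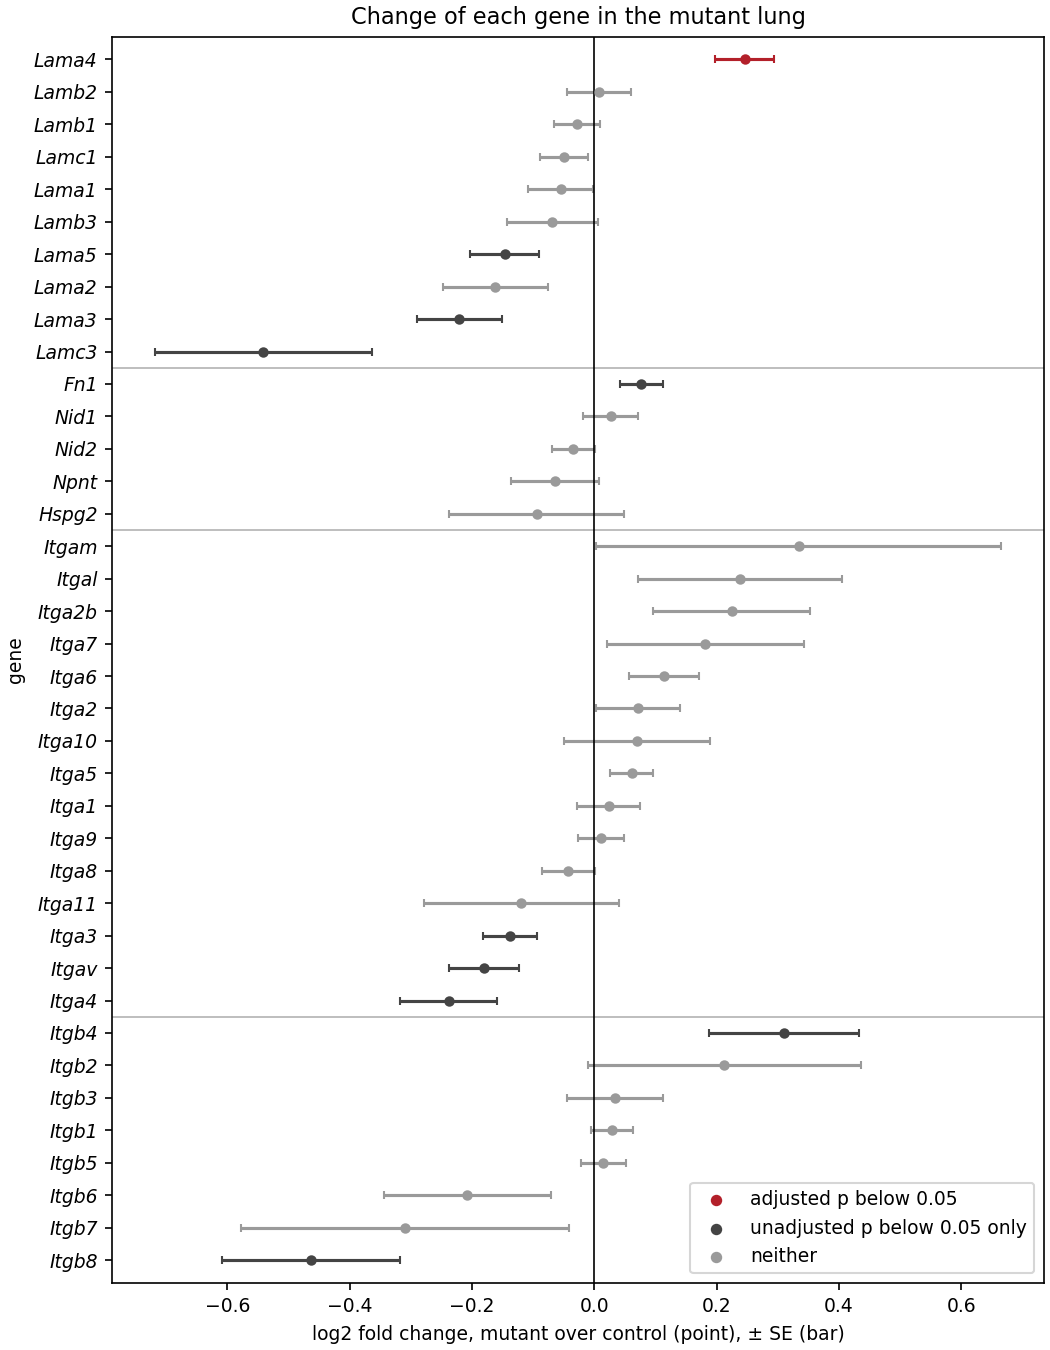
Change of each of the 38 genes: points are log2 fold changes of mutant over control on the x axis, bars are ± SE, and genes are on the y axis in their 4 role groups. Lama4, at 0.25, is the only point in red (adjusted p below 0.05); dark grey points have an unadjusted p below 0.05 only.

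Of the 10 laminin chain genes 1 rose, 0 fell and 9 did not pass, with a median log2 fold change of -0.06. At an unadjusted p below 0.05 there were 4 of them, 1 higher and 3 lower, against 13.9% of all genes tested. Lama4, the gene that rose, encodes the alpha chain of the laminins that endothelial and mesenchymal cells make. It lies on chromosome 10 from 38965515 to 39110188 on the plus strand (GRCm38, as all coordinates here), and its RNA measured 140.2, 159, 158 and 142 CPM in control replicates 1 to 4 and 176, 183, 186 and 165 CPM in mutant replicates 1 to 4. Every mutant library lay above every control library. The rise was from 149.8 ± 10.1 to 178 ± 9.45 CPM (SD, n = 4), 1.19-fold, a change of 0.25 on the log2 scale with SE 0.0480 and adjusted p = 0.0174 in edgeR. The call was lost without control replicate 1 (adjusted p = 0.0599). It was also lost when mutant replicate 2 was left out (adjusted p = 0.0514), and it was kept in the other 14 of 16 alternatives. Over all 16 the log2 fold change lay between 0.22 and 0.33.

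Lama4 RNA was set beside 10 markers of endothelium, such as Pecam1, Cdh5 and Tek. Log2 fold changes were positive for all 10, their median was 0.08, 1 passed (Emcn) and none was at 0. Their sum was 1178 to 1260.4 CPM in control and 1269.8 to 1325 CPM in mutant libraries, so these sums did not overlap. As a share of that sum, a measure chosen after the values were seen, Lama4 was 11.3% to 12.9% in control and 12.7% to 14.1% in mutant libraries. Mutant replicate 4, at 12.7%, lay inside the control range and the other mutant libraries lay above it. The group mean of this share was 1.12 times that of the controls, and that of the marker sum itself 1.05 times. Against 5 pericyte markers, whose sum was 591 to 661 CPM in control and 575 to 660.4 CPM in mutant libraries, the share was 22.6% to 24.1% in control and 25.0% to 30.6% in mutant libraries, without overlap. The sum of 7 smooth muscle markers was 1451 to 1544 CPM in control and 1493 to 1646 CPM in mutant libraries. Of the 7, 6 were positive, 0 passed and none was at 0. With an unadjusted p below 0.05 there were 4, against 13.9% of all genes tested. Against that sum Lama4 was 9.58% to 10.9% in control and 10.01% to 12.3% in mutant libraries, with overlap. The sum of 8 mesenchymal markers was 1069 to 1125 CPM in control and 1035 to 1093 CPM in mutant libraries, with overlap. Of the 8, 6 had negative log2 fold changes and 1 passed (Wnt2, lower). All these shares of Lama4 contain the values that gave its call and are given as a description. The part of endothelium, pericytes, smooth muscle and mesenchyme in the rise of Lama4 was not tested.

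Lama5, the alpha chain of most epithelial and vessel basement membranes, measured 429, 510.1, 479 and 484 CPM in control replicates 1 to 4 and 396, 422, 437 and 464 CPM in mutant replicates 1 to 4. Mutant replicates 3 and 4 lay within the control range and mutant replicates 1 and 2 below it. The gene did not pass (log2 fold change -0.15 with SE 0.0558 and adjusted p = 0.253). Lama3, the alpha chain of the laminin that anchors surface epithelia, measured 47.8, 58.1, 57.5 and 51.0 CPM in control replicates 1 to 4 and 43.7, 50.2, 47.2 and 41.9 CPM in mutant replicates 1 to 4. Its mutant values were mostly below the controls, but mutant replicate 2 exceeded control replicate 1, and the gene did not pass (log2 fold change -0.22 with SE 0.0696 and adjusted p = 0.144). Lamc3, a gamma chain found at few sites, was low, at 3.01, 3.33, 4.24 and 4.12 CPM in control replicates 1 to 4 and 2.60, 2.36, 1.85 and 3.38 CPM in mutant replicates 1 to 4 (log2 fold change -0.54 with SE 0.178 and adjusted p = 0.148), and overlapped through mutant replicate 4. With no filter on low counts Lama3 and Lama5 passed as lower (adjusted p = 0.00428 and 0.0339). Without mutant replicate 4, Lamc3 did (adjusted p = 0.0426). Of the 16 alternatives Lama3 and Lama5 passed in 2 each and Lamc3 in 1. Over all 16 the log2 fold change lay between -0.27 and -0.10 for Lama3 and between -0.19 and -0.015 for Lama5. For Lamc3 it lay between -0.68 and -0.43.

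The epithelial marker sum was set beside Lama3 and Lama5. The sum of 10 of them, among them Epcam, Cdh1 and Nkx2-1, was 1007 to 1085 CPM in control and 1078 to 1136 CPM in mutant libraries, with overlap. Of the 10, 8 had positive log2 fold changes, 1 passed (Sox2) and none was at 0. As shares of that sum, chosen after the values were seen, Lama5 was 42.6% to 47.0% in control and 36.7% to 40.9% in mutant libraries. Lama3 was 4.73% to 5.43% in control and 3.69% to 4.50% in mutant libraries. Both shares were lower in every mutant library than in any control. They contain the values that gave Lama3 and Lama5 their low unadjusted p. The mutant mean of the epithelial sum itself was 1.05 times that of the controls. The shares are therefore given as a description only. The sum of 12 mesothelial markers was 372 to 398 CPM in control and 293 to 349.6 CPM in mutant libraries. Of those 12, 4 fell, 10 had negative log2 fold changes and none was at 0. The part of epithelium and mesothelium in the values of Lama3 and Lama5 was not tested.

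None of the other laminin chains passed or had an unadjusted p below 0.05, and their groups overlapped. Lama1, the alpha chain of early epithelial basement membranes, had a log2 fold change of -0.05 (SE 0.0529), and its 4 controls lay within 31.0 to 31.3 CPM. Lama2, the alpha chain of muscle and nerve sheaths, measured 23.2 ± 1.77 and 20.7 ± 2.78 CPM in control and mutant libraries (log2 fold change -0.16, SE 0.0861). Lamb1, a beta chain of most embryonic laminins, measured 342, 377, 372 and 374 CPM in control replicates 1 to 4 and 346, 353, 376 and 361 CPM in mutant replicates 1 to 4. Control replicate 1 was the lowest of its group, and the ranges overlapped (log2 fold change -0.03 with SE 0.0380 and adjusted p = 0.806). Lamc1, the gamma chain shared by most laminins, measured 419.6, 458, 465 and 447 CPM in control replicates 1 to 4 and 409, 439, 457 and 424 CPM in mutant replicates 1 to 4. The ranges overlapped here as well (log2 fold change -0.05 with SE 0.0396 and adjusted p = 0.642). The beta chains Lamb2 and Lamb3 differed by 0.01 and -0.07 on the log2 scale (SE 0.0528 and 0.0745).

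Levels of different genes were compared per length, as CPM per kilobase of exon. Lamc1 had the highest control level of the laminin chains, at 54.1 ± 2.42 CPM per kilobase (mean ± SD over 4 libraries, as in all such values), followed by Lama5 at 41.8 ± 2.98 and Lamb1 at 36.9 ± 1.66, whose ranges overlapped. Lamb2 followed at 28.2 ± 1.90 and Lama4 at 12.4 ± 0.834 CPM per kilobase. Then came Lamb3 at 7.03, Lama3 at 4.99, Lama1 at 3.22, Lama2 at 1.40 and Lamc3 at 0.603 CPM per kilobase, each outside the range of the one before.

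Within the summed level of the 5 alpha chains, Lama5 made up 65.5% ± 1.13 in control and 61.8% ± 2.47 in mutant libraries. The share of Lama4 was 19.5% ± 0.722 in control and 24.1% ± 1.5 in mutant libraries, at 19.9, 19.3, 20.1 and 18.5% across control replicates 1 to 4, and at 25.3, 24.7, 24.5 and 21.9% across mutant replicates 1 to 4. Every mutant share of Lama4 was above every control share, with mutant replicate 4 the nearest to them. This share contains the values that gave the call of Lama4 and is given as a description. The shares of Lama1 were 5.07% ± 0.327 and 5.08% ± 0.298, and those of the beta chains Lamb1 and Lamb2 were 51.3% ± 0.719 and 39.0% ± 0.574 in control and 50.9% ± 0.780 and 39.8% ± 1.199 in mutant libraries.

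**Figure D2:**
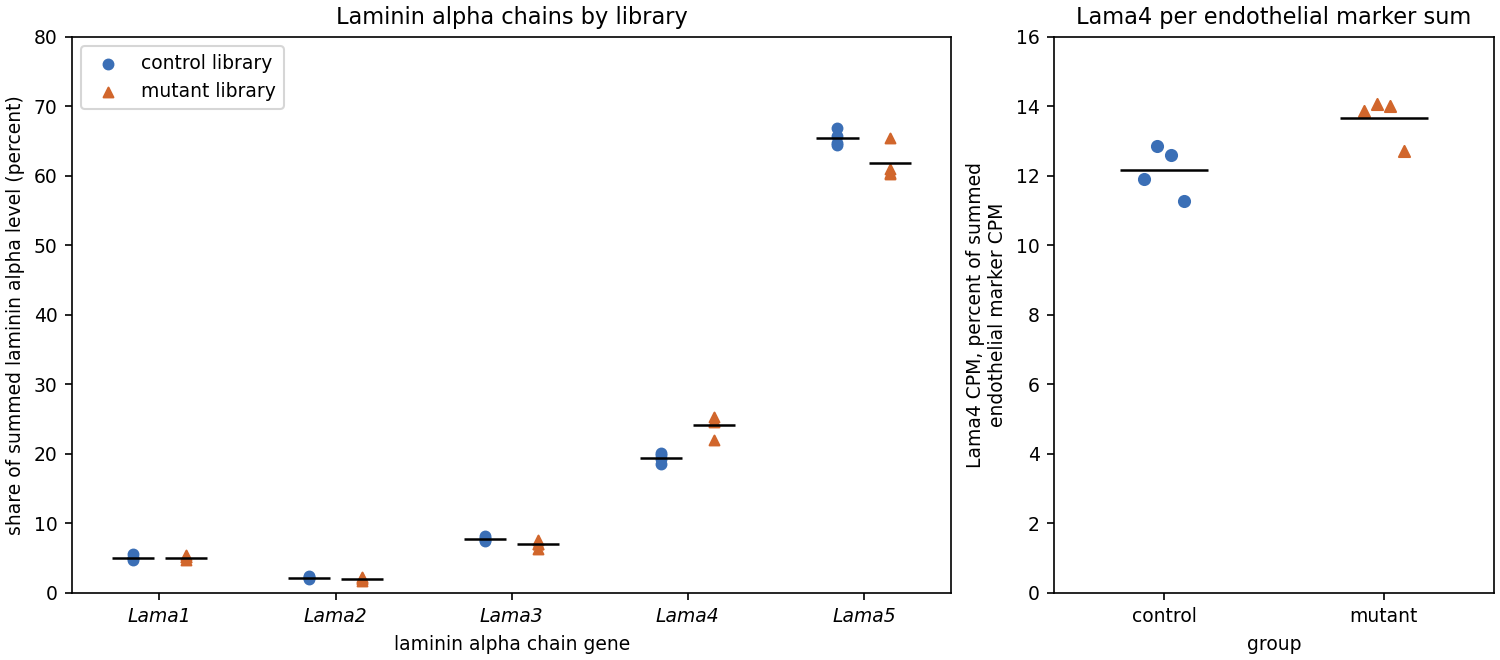
Left, the share of each laminin alpha chain gene in their summed length-scaled level, in percent, for each of 4 control (circles) and 4 mutant libraries (triangles); right, Lama4 CPM as a percent of the summed CPM of 10 endothelial markers. Black lines are group means; the Lama4 shares of the alpha chains do not overlap between groups, and in the right panel mutant replicate 4, at 12.7%, lies within the control range.

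Of the 5 other glycoproteins of the matrix, 0 passed in edgeR, DESeq2 or limma-voom. With an unadjusted p below 0.05 there was 1, against 13.9% of all genes tested. That gene was Fn1, which encodes fibronectin, the ligand of the alpha 5 integrin. It measured 537, 601, 581 and 579 CPM in control replicates 1 to 4 and 595, 607, 622 and 598 CPM in mutant replicates 1 to 4. The mutant values sat at the upper end of the controls and overlapped them through control replicate 2 (log2 fold change 0.08 with SE 0.0352 and adjusted p = 0.340). Per length, Fn1 was the highest of the 5 in control libraries, at 49.2 ± 2.30 CPM per kilobase, with Nid2 at 46.6 ± 1.59 and Nid1 at 42.6 ± 2.56. The ranges of neighbours in that order overlapped, down to Hspg2 at 40.9 ± 5.90, and Npnt lay below them at 27.5 ± 2.13 CPM per kilobase.

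The nidogen genes Nid1 and Nid2, whose products bridge laminin and collagen IV, did not pass. Nid1 measured 273, 305, 313 and 292 CPM in control replicates 1 to 4 and 282, 309, 317 and 296 CPM in mutant replicates 1 to 4 (log2 fold change 0.03 with SE 0.0449 and adjusted p = 0.850). Nid2 measured 229, 247, 245 and 244 CPM in control replicates 1 to 4 and 239, 227, 240.4 and 236 CPM in mutant replicates 1 to 4 (log2 fold change -0.03 with SE 0.0353 and adjusted p = 0.736). Both ranges overlapped, and the lowest control value of Nid1 was that of control replicate 1. Npnt, which encodes nephronectin, the ligand of the alpha 8 integrin, measured 138 ± 10.7 and 132 ± 11.9 CPM (log2 fold change -0.06, SE 0.0716).

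Hspg2, which encodes perlecan, varied more between libraries of a group than any other of the 5. It measured 504, 704, 638 and 565 CPM in control replicates 1 to 4 and 458, 562, 632 and 608 CPM in mutant replicates 1 to 4. The spread in controls was 14.4% of the mean, against 4.68% for Fn1 and 3.41% for Nid2, and the gene did not pass (log2 fold change -0.09 with SE 0.143 and adjusted p = 0.840). Control replicate 1 and mutant replicate 1 were the lowest of their groups. The same libraries held the lowest value of their group for 20 and 19 of the 38 genes, and their summed CPM over the 38 genes was 4759 in both, where the other 6 libraries lay between 5023 and 5337. Mutant replicate 3 held the highest mutant value for 23 of the 38 genes.

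**Figure D3:**
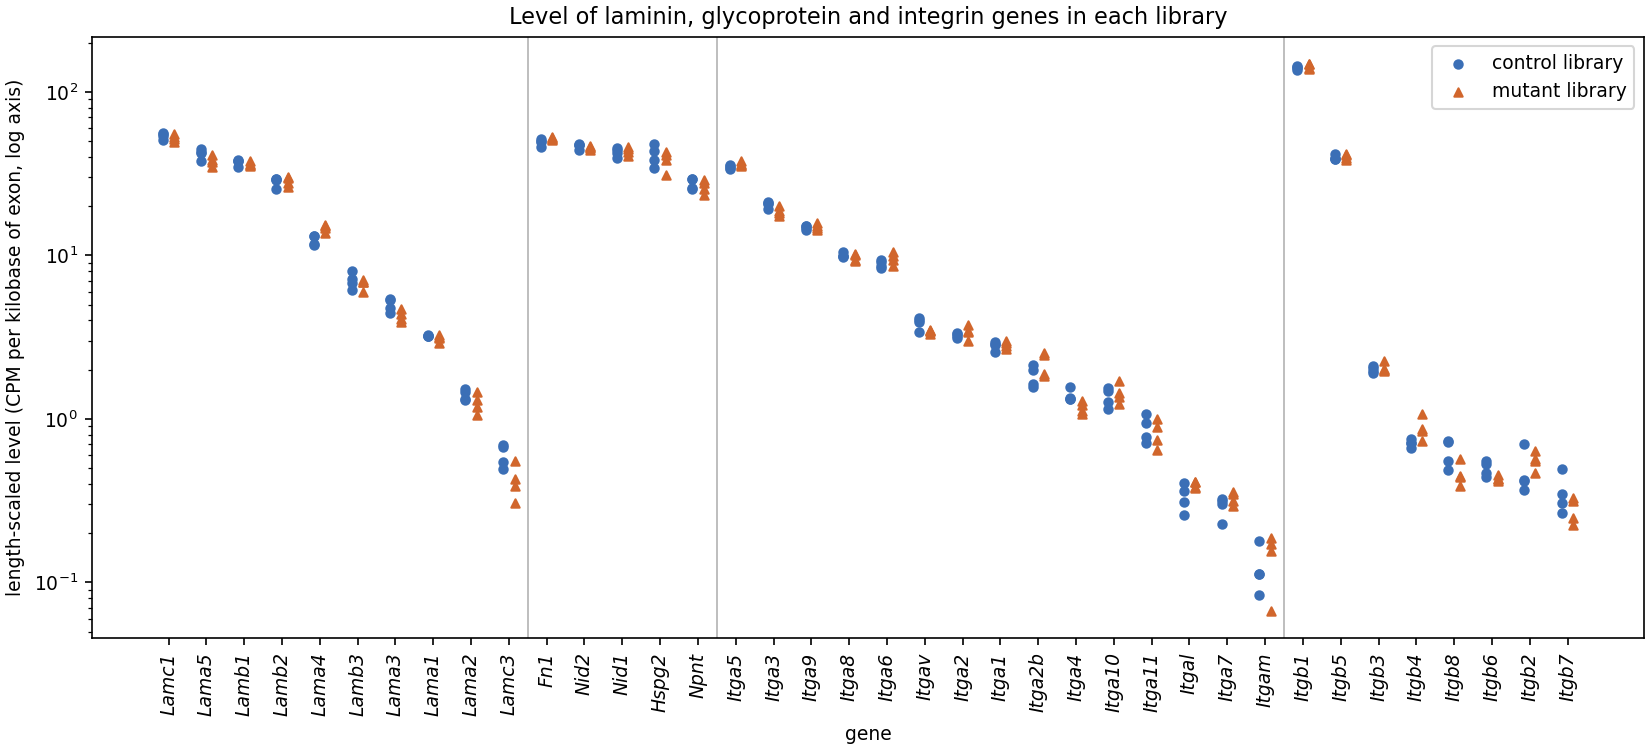
Length-scaled level of each of the 38 genes in every library, as CPM per kilobase of exon on a log axis, with the 4 role groups separated by grey lines and genes ordered by control level. Circles are 4 control and triangles 4 mutant libraries; the highest level is that of Itgb1, at 139.9 CPM per kilobase in controls, and the lowest that of Itgam, at 0.122.

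Integrin alpha chains largely set which ligand a receptor binds. Of 15 alpha chain genes 0 passed in edgeR, DESeq2 or limma-voom. With an unadjusted p below 0.05 there were 3, all lower, against 13.9% of all genes tested. The median log2 fold change of the 15 was 0.06. The 3 with a low unadjusted p were Itga3, a laminin receptor chain of epithelium, Itga4, which pairs to bind fibronectin and VCAM1, and Itgav, whose dimers bind the RGD motif in fibronectin and other ligands.

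Itga4, on chromosome 2 from 79255426 to 79333123 on the plus strand, measured 18.4, 18.8, 21.8 and 18.4 CPM in control replicates 1 to 4 and 14.9, 17.0, 17.9 and 15.6 CPM in mutant replicates 1 to 4. All mutant libraries lay below all controls, by a margin of 18.4 against 17.9 CPM between the nearest of them, and control replicate 3 stood above the other controls. The gene did not pass over all genes tested (log2 fold change -0.24 with SE 0.0786 and adjusted p = 0.148), nor in any of 16 alternatives. Leukocytes are known to carry this integrin. The sum of 10 leukocyte markers was 139.9 to 146 CPM in control and 128 to 138 CPM in mutant libraries, with 8 of 10 negative, 1 passing (Mrc1, lower) and none at 0. The share of Itga4 in that sum, also chosen after the values were seen, was 12.9% to 14.9% in control and 10.8% to 13.6% in mutant libraries, with overlap. Against the mesothelial marker sum, which was lower in every mutant library, Itga4 was 4.63% to 5.49% in control and 4.26% to 5.96% in mutant libraries, with overlap and a mean share 1.07 times that of the controls. The part of leukocytes and mesothelium in the values of Itga4 was not tested.

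Itga3 measured 109.7, 121, 117 and 119.8 CPM in control replicates 1 to 4 and 99.4, 107, 104 and 115 CPM in mutant replicates 1 to 4. Only mutant replicate 4 reached the control range, and the gene did not pass (log2 fold change -0.14 with SE 0.0446 and adjusted p = 0.138). Without mutant replicate 4 it passed as lower (adjusted p = 0.0388). It passed in 2 of 16 alternatives, and over all 16 the log2 fold change lay between -0.17 and -0.065. Relative to the sum of the epithelial markers Itga3 was 10.9% to 11.2% in control and 9.22% to 10.1% in mutant libraries, without overlap. This measure was chosen after the values were seen. It contains the values that gave Itga3 its low unadjusted p and is given as a description. Relative to the mesothelial markers Itga3 was 27.6% to 32.6% and 28.4% to 38.6%, with overlap.

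Itgav measured 44.5, 42.0, 43.2 and 36.4 CPM in control replicates 1 to 4 and 35.6, 36.8, 37.6 and 36.8 CPM in mutant replicates 1 to 4. The 4 mutant values were close together and the controls were spread, with control replicate 4 inside the mutant range (log2 fold change -0.18 with SE 0.0572 and adjusted p = 0.130). Without control replicate 4 the gene passed as lower (adjusted p = 0.0224). This was 1 of 16 alternatives, and over all 16 the log2 fold change lay between -0.24 and -0.12.

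The remaining alpha chains gave no separation of the groups. The other chains of laminin receptors, Itga6 and the muscle chain Itga7, differed by 0.11 and 0.18 on the log2 scale (SE 0.0570 and 0.161). The log2 fold changes of the collagen receptor chains Itga1, Itga2, Itga10 and Itga11 were 0.02 (SE 0.0520), 0.07 (SE 0.0693), 0.07 (SE 0.119) and -0.12 (SE 0.160). Itga8, the chain that binds nephronectin, and Itga9, which binds tenascin and is known from lymphatic valves, had log2 fold changes of -0.04 (SE 0.0436) and 0.01 (SE 0.0379). Itga2b, the platelet chain, was at 10.02 ± 1.5 and 11.8 ± 2.02 CPM. The leukocyte chains Itgal and Itgam were at 2.19 ± 0.415 and 0.613 ± 0.204 CPM in controls and 2.60 ± 0.112 and 0.732 ± 0.271 CPM in mutants. At such levels a library held few counts, for example 8 for Itgam in control replicate 1, and the SE of its log2 fold change, 0.332, exceeded the change of Lama4.

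Per length, the highest alpha chain in control lung was Itga5, the fibronectin receptor chain, at 34.6 ± 0.912 CPM per kilobase. It measured 166, 174, 168 and 175.2 CPM in control replicates 1 to 4 and 176, 173, 179 and 186 CPM in mutant replicates 1 to 4, with overlapping groups (log2 fold change 0.06 with SE 0.0355 and adjusted p = 0.477). Itga3 followed at 20.5 ± 0.902 and Itga9 at 14.8 ± 0.363 CPM per kilobase, each outside the range of the one above it. Itga9 measured 116, 112, 110.4 and 116 CPM in control replicates 1 to 4 and 113, 109, 116 and 120.4 CPM in mutant replicates 1 to 4 (log2 fold change 0.01 with SE 0.0379 and adjusted p = 0.934). Below them lay Itga8 at 9.98 ± 0.306 and Itga6 at 8.83 ± 0.462 CPM per kilobase, and the other 10 alpha chains were at or below the 3.86 of Itgav. Itga4 and Itga10 did not differ beyond their spread, nor did Itgal and Itga7.

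Beta chains set the family of the receptor, and Itgb1 is shared by the laminin, collagen and most fibronectin receptors. Of 8 beta chain genes 0 passed in edgeR, DESeq2 or limma-voom, with a median log2 fold change of 0.02. With an unadjusted p below 0.05 there were 2, 1 higher and 1 lower, against 13.9% of all genes tested. Itgb1 made up 76.0% ± 0.682 of the summed beta level in control and 76.1% ± 1.23 in mutant libraries. It measured 569, 586, 575 and 552 CPM in control replicates 1 to 4 and 568, 600.0, 603 and 559 CPM in mutant replicates 1 to 4 (log2 fold change 0.03 with SE 0.0340 and adjusted p = 0.771). Itgb5, a partner of the alpha v chain, made up 21.5% ± 0.661 and 21.4% ± 1.19. It measured 147, 138, 139 and 138 CPM in control replicates 1 to 4 and 148, 136, 140.0 and 145 CPM in mutant replicates 1 to 4 (log2 fold change 0.01 with SE 0.0368 and adjusted p = 0.906). In both genes the groups overlapped throughout. Itgb3, the next in control level, measured 11.2, 11.6, 12.4 and 12.1 CPM in control replicates 1 to 4 and 11.6, 11.8, 11.9 and 13.3 CPM in mutant replicates 1 to 4 (log2 fold change 0.03 with SE 0.0785 and adjusted p = 0.896).

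The 2 beta chains with an unadjusted p below 0.05 were both low in level. Itgb8, whose dimer with the alpha v chain is known to activate TGF-beta, measured 8.08, 6.14, 7.96 and 5.41 CPM in control replicates 1 to 4 and 4.89, 4.28, 4.93 and 6.25 CPM in mutant replicates 1 to 4. Mutant replicate 4 lay within the control range and the other mutant libraries below it (log2 fold change -0.46 with SE 0.145 and adjusted p = 0.123, the smallest adjusted p among the 37 genes that did not pass). Itgb8 passed as lower without control replicate 4 (adjusted p = 0.0440), without mutant replicate 4 (adjusted p = 0.0417) and with no filter on low counts (adjusted p = 0.0176). It passed in these 3 of 16 alternatives only, and over all 16 the log2 fold change lay between -0.57 and -0.28. The sum of 8 nerve and glia markers was 91.7 to 101.1 CPM in control and 109.5 to 116.2 CPM in mutant libraries, without overlap. Of the 8, 6 had positive log2 fold changes and 1 passed (Ret, higher). Itgb8 was 5.37% to 8.68% of that sum in control and 3.91% to 5.56% in mutant libraries, with overlap. This share was chosen after the values were seen. The part of nerve and glia in the values of Itgb8 was not tested. Itgb4, the hemidesmosome chain that binds laminin, measured 4.96, 4.96, 5.25 and 4.68 CPM in control replicates 1 to 4 and 5.17, 6.11, 7.52 and 5.91 CPM in mutant replicates 1 to 4. The mutant libraries were higher apart from mutant replicate 1, which lay inside the control range (log2 fold change 0.31 with SE 0.123 and adjusted p = 0.251).

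The other beta chains were low in level, and their groups overlapped. Itgb6, the epithelial partner of the alpha v chain that also activates TGF-beta, measured 3.54 ± 0.385 and 3.07 ± 0.111 CPM (log2 fold change -0.21, SE 0.136). The leukocyte chains Itgb2 and Itgb7 measured 1.46 ± 0.464 and 0.978 ± 0.279 CPM in controls and 1.70 ± 0.220 and 0.768 ± 0.138 CPM in mutants. From Itgb4 down through Itgb8, Itgb6, Itgb2 and Itgb7, neighbours in the order of control levels did not differ beyond their spread.

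**Figure D4:**
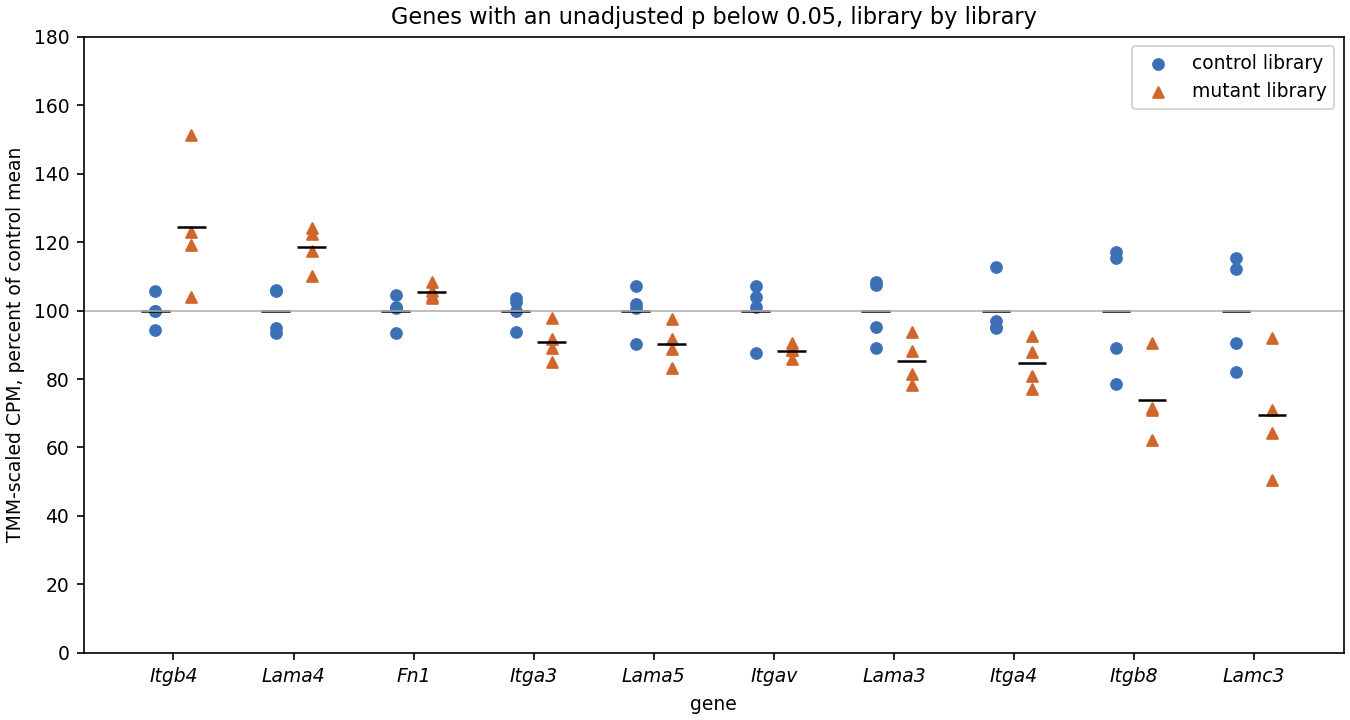
The 10 genes with an unadjusted p below 0.05, as TMM-scaled CPM in percent of the control mean, with circles for 4 control and triangles for 4 mutant libraries and black lines for group means. Lama4 and Itga4 are the genes whose groups do not overlap. In Lama5, Itga3, Lamc3 and Itgb8 the highest mutant value, that of mutant replicate 4, lies among the controls.

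Promoter windows from RefSeq (GRCm38.p6) were matched for 25 of the 38 genes, in 29 windows. The 250 bases before each start site were searched on both strands for the 7-base words CTGGTAC and CTGGCAC, the recognition motif known for MYRF. These words occur in 5.93% of all 32851 windows and in 1 of the 29 windows, 3.45%, that of Itgb8. The run with its 10 flanking bases on each side is shown because it is the 1 match, with the match in capitals, and is followed by the window of Itga4, a gene whose groups did not overlap, which holds none. The Itgb8 run (chr12:119238410-119238436, minus strand) lies in exon 1 of 3 Itgb8 transcripts of GENCODE vM21, and the Itga4 window is chr2:79255176-79255425 on the plus strand, both read 5′ to 3′. Both sequences were picked after the values and the search were seen. A match is a description of letters, not of binding.
Itgb8: ccccaagctgCTGGCACccgtgtctcc
Itga4: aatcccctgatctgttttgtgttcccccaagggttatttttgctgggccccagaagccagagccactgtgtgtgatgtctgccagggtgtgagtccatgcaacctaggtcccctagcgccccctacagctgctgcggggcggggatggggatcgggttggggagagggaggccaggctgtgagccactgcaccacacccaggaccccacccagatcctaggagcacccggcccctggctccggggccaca

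Further components of the basement membrane included 3 genes that fell. Of 23 listed and tested, 0 rose, 3 fell and 20 did not pass (median log2 fold change -0.03). Col4a4, which forms a collagen IV network with Col4a3, measured 25.8, 31.1, 30.5 and 27.7 CPM in control replicates 1 to 4 and 13.2, 15.5, 14.7 and 15.6 CPM in mutant replicates 1 to 4 (log2 fold change -0.96 with SE 0.0762 and adjusted p = 1.68e-06). Col4a3 measured 4.49, 3.78, 4.69 and 4.68 CPM in control replicates 1 to 4 and 2.33, 2.81, 2.29 and 2.08 CPM in mutant replicates 1 to 4 (log2 fold change -0.86 with SE 0.144 and adjusted p = 0.00460), a call lost among the 4 libraries that hold Xist as well as Y-linked transcripts (2 controls and 2 mutants, log2 fold change -1.06, adjusted p = 0.0512). In both genes every mutant value lay below every control value. Frem2, a protein that links embryonic epithelium to the matrix below it, measured 174.6, 172, 179 and 185 CPM in control replicates 1 to 4 and 154, 149, 148 and 148 CPM in mutant replicates 1 to 4 (log2 fold change -0.25 with SE 0.0347 and adjusted p = 9.69e-04). The groups were apart here too. Col4a1 and Col4a2, the collagen IV chains of most basement membranes, differed by -0.03 and -0.04 on the log2 scale (SE 0.0808 and 0.0811).

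Of 10 genes for laminin receptors other than integrins, 9 were tested, 0 rose and 1 fell. That gene was Sdc2, a syndecan of mesenchymal cells, which measured 133, 128, 139.7 and 128 CPM in control replicates 1 to 4 and 106, 118, 119.6 and 115 CPM in mutant replicates 1 to 4 (log2 fold change -0.21 with SE 0.0428 and adjusted p = 0.0211). All mutant values were below all controls. Groups were also apart, with the mutant higher, in 2 genes that did not pass, named after their values were seen. They were Sdc1, an epithelial syndecan (log2 fold change 0.08 with SE 0.0325 and adjusted p = 0.257), and Sgcb, a sarcoglycan (log2 fold change 0.12 with SE 0.0550 and adjusted p = 0.360). For Sdc2 the log2 fold change lay between -0.22 and -0.15 over the 16 alternatives, and the call was lost in 5 of them. These were the Y-linked covariate (adjusted p = 0.170), the 4 libraries that hold Xist as well as Y-linked transcripts (0.379), and the fits without control replicate 1 (0.0634), without control replicate 3 (0.0929) and without mutant replicate 1 (0.0700). Bcam, a laminin alpha 5 receptor with the highest length-scaled level of the list (74.2 ± 3.69 CPM per kilobase in controls), did not pass (log2 fold change -0.13 with SE 0.0392 and adjusted p = 0.102), and Dag1, dystroglycan, had a log2 fold change of -0.07 (SE 0.0448).

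Inside the cell, 28 genes for partners of integrins were tested and 0 passed in edgeR, DESeq2 or limma-voom. Their median log2 fold change was 0.00. With an unadjusted p below 0.05 there were 4, or 14.3%, against 13.9% of all genes tested. The highest length-scaled levels were those of Flna, filamin A (1389 ± 36.2 and 1379 ± 37.2 CPM), and Actn4, an actinin (485 ± 14.9 and 486 ± 6.56 CPM). The leukocyte kindlin Fermt3 had a log2 fold change of -0.11 (SE 0.0804), and the widespread kindlin Fermt2 0.02 (SE 0.0369). Of 20 further integrin ligands 18 were tested. Of these 0 passed in edgeR, and DESeq2 and limma-voom each called 1 higher. With an unadjusted p below 0.05 there were 3, or 16.7%, against 13.9% of all genes tested. The ligands with the highest length-scaled levels were Thbs1, thrombospondin 1 (617 ± 31.4 and 594 ± 15.7 CPM), and Tgfbi (361 ± 11.8 and 350.1 ± 4.95 CPM). Tnc, tenascin C, a ligand of the alpha 9 integrin chosen here after its values were seen, measured 48.5, 63.3, 58.1 and 55.4 CPM in control replicates 1 to 4 and 65.6, 72.8, 73.8 and 64.9 CPM in mutant replicates 1 to 4, with every mutant value above the controls (log2 fold change 0.30 with SE 0.0725 and adjusted p = 0.0588). Madcam1, a ligand of leukocyte integrins also chosen after its values were seen, lay below the controls and did not pass (log2 fold change -0.63 with SE 0.232 and adjusted p = 0.204). Its nearest values were 1.240 CPM in control replicate 2 and 1.238 CPM in mutant replicate 4, each from 22 counts, so the groups barely separated.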

How the data were processed

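RNA of 8 lung libraries, 4 in each group, was compared. The authors deposited a table of raw read counts per gene, made with featureCounts 1.6.4 on paired reads with strand option 2 and GENCODE vM25, per the file header. STAR, featureCounts, DESeq2 and the build GRCm38 (mm10) are named in the submitters' processing notes. The 38 genes, the related lists and the marker lists were chosen with earlier results of these data known.

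Genes were tested with edgeR 4.0.16 (filterByExpr, TMM, robust quasi-likelihood F test) on R 4.3.3, in all 8 libraries with group as the only term. P-values were adjusted by Benjamini and Hochberg over 15788 genes, and an adjusted p below 0.05 was a call. Genes of the 38 that passed, whose groups did not overlap, or that had one of the 3 highest length-scaled control levels in their role group were given in all 8 libraries, and the others by level or log2 fold change. Genes with an unadjusted p below 0.05, and Hspg2 for its spread, were also given in full, a choice made after seeing the data. Of related lists, the genes that passed were named or, with none, the 2 of highest level, and further ones (Col4a1, Col4a2, Bcam, Dag1, Fermt2, Fermt3, Tnc, Sdc1, Sgcb, Madcam1) after their values were seen. Length-scaled levels are CPM divided by the exon length in kilobases in the deposited table. Alternatives were a replicate block, RLE scaling, DESeq2 1.42.0, limma-voom (limma 3.58.1), no filter on low counts, no robust estimation, a covariate of Y-linked counts, leaving out each library, and a fit of the 4 libraries that hold Xist as well as Y-linked transcripts, chosen after seeing the data. The test was tried on simulated data. Counting across near-identical genes or shared exons was not resolved further. Protein sequences were not used here.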

Additional observations from a re-analysis of the deposited data

Results flagged for a closer look

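In each gene and group of 4 libraries the highest or lowest value was compared with its nearest neighbour, and a gap above Dixon's 95% critical share of the group's range was taken as far from the others. Of 76 groups 5 met this, where chance gives about 1 in 20. For Lamb1, control replicate 1 was low, at 341.8 CPM. For Itga4, control replicate 3 was high, at 21.8 CPM. For Itgb2, control replicate 3 was high, at 2.146 CPM. For Itgb5, control replicate 1 was high, at 146.9 CPM. For Itgb3, mutant replicate 4 was high, at 13.34 CPM.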

How the results depend on the processing

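The count of all genes changed, 236, was 541 with a replicate block, 380 with DESeq2, 791 with no filter on low counts, 142 without robust estimation, 95 with a covariate of Y-linked counts, and 87 in the 4 libraries that hold Xist as well as Y-linked transcripts, an alternative chosen after seeing the data. It ranged from 96 to 479 when each library was left out, with the lowest count without control replicate 3 and the highest without mutant replicate 4. Of the 38 genes, the number higher was 0 to 1 and the number lower 0 to 3 when each library was left out. The number with groups that did not overlap was 3 to 7 in these fits. Groups separate more readily by design when a library is left out. The share of all genes was not counted in these fits, so the range is not read as a result about the 38 genes. The number lower was 3 with no filter on low counts and 3 with the replicate block. Deviations of same-numbered libraries correlated at 0.0811, 0.0648, 0.181 and 0.0125 for replicates 1 to 4, not above 0.1 in every pair, and the labels do not say whether a number marks a shared litter or day, so the block was not used in the main comparison. With the block the lower genes were Lama3 (adjusted p = 0.00780), Lama5 (0.0272) and Itga3 (0.0257) in edgeR. The cause of these differences was not tested.

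Of the 38 genes 24 kept their sign in all 16 alternatives and 14 did not. None of the 14 passed in the main comparison. With the covariate of Y-linked counts the log2 fold change was 0.12 for Hspg2, -0.011 for Itga9, -0.0060 for Itgb5, 0.014 for Lamb1, 0.066 for Lamb3, 0.0055 for Lamc1, 0.00010 for Nid2 and 0.051 for Npnt. In the 4 libraries that hold Xist as well as Y-linked transcripts it was 0.22 for Hspg2, 0.047 for Lamb1, 0.089 for Lamb3, 0.029 for Lamc1, 0.015 for Nid2 and 0.085 for Npnt. When each library was left out it ranged from -0.018 to 0.052 for Itga1, -0.0095 to 0.14 for Itga10, -0.22 to 0.0066 for Itga11, -0.012 to 0.041 for Itga9, -0.0089 to 0.061 for Itgb3, -0.00033 to 0.042 for Itgb5, -0.039 to 0.052 for Lamb2, -0.13 to 0.00030 for Lamb3 and -0.010 to 0.061 for Nid1. Depth limits the genes of lowest level, such as Itgam, whose SE exceeded the change of Lama4.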
